A study of Mus musculus with 24 samples.

Results

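The genes described here carry the oxytocin and vasopressin signal at its receiving end or decide how much peptide reaches it. Oxtr and Avpr1a encode the oxytocin receptor and the vasopressin V1a receptor, Lnpep encodes a membrane aminopeptidase that cleaves both peptides, and Cd38 encodes an enzyme on which oxytocin release depends. They were chosen by name for these roles, and they are 4 of the 22274 genes in the deposited table.

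The study sequenced RNA from the brains of mice whose pituitary stalk had been destroyed by a cathodic current (pituitary stalk electrical lesion, PEL) and of Sham mice. The hypothalamic groups were SHAM and SHAM-GH, both labelled Day 0, PEL_3d and PEL_3d-GH at Day 3, and PEL_10d and PEL_10d-GH at Day 10, where GH stands for growth hormone. The hippocampal groups were HIP-SHAM at Day 0 and HIP-PEL_10d at Day 10, so there were 8 groups of 3 libraries. The mice were male C57BL/6 J, and the hypothalamic tissue contained the supraoptic and paraventricular nuclei. No group is labelled with another allele, and the labels and methods give neither the age of the mice nor the dose and timing of GH. Every lesion group was also collected on a later labelled day than its Sham group, so lesion and day cannot be told apart. Nothing states whether a library came from 1 mouse or from a pool, and the tests below measure the spread between libraries.

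Oxytocin and vasopressin are made by large neurons of the supraoptic and paraventricular nuclei, whose axons run down the pituitary stalk, and the same peptides are released within the brain. Oxtr and Avpr1a are receptors that act mainly through Gq proteins, phospholipase C beta and calcium release. Lnpep, also known as oxytocinase, ends the peptides' action by trimming them, and Cd38 makes cyclic ADP-ribose from NAD, a messenger that frees calcium for oxytocin release and that is also made in immune cells and glia.

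For each gene, every library has a deposited estimated count and an FPKM (fragments per kilobase of gene length, scaled to library size). Total counts per library ranged from 15095267 to 17973494, with a median of 15883700. Oxtr (ENSMUSG00000049112) lies on chromosome 6, minus strand, from 112473683 to 112489943 in GRCm38, and its longest coding transcript has 2 exons. Avpr1a (ENSMUSG00000020123) lies on chromosome 10, plus strand, from 122448499 to 122453452, also with 2 exons. Lnpep (ENSMUSG00000023845) lies on chromosome 17, minus strand, from 17521410 to 17625050, with 18 exons. Cd38 (ENSMUSG00000029084) lies on chromosome 5, plus strand, from 43868553 to 43912375, with 8 exons. In the annotation Avpr1a overlaps the antisense gene Gm48877, Lnpep overlaps Gm49784, and Cd38 overlaps Gm16014 and the antisense gene Gm16015. The deposited table lists none of these overlapping genes, and the strand of counting is not given, so reads from them cannot be told apart from reads of the members.

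Some libraries went against their labels. SHAM 1, labelled hypothalamus, held 12.5 FPKM summed over a list of 10 hypothalamic genes, against 1390 in SHAM 2 and 1333 in SHAM 3, and Agrp and Sim1 stood at 0 in it. Its sum over 10 hippocampal genes was 542 FPKM, against 51.7 and 54.1 in SHAM 2 and SHAM 3, with Nrgn the most abundant. HIP-SHAM 1, labelled hippocampus, held 1154 FPKM of the hypothalamic genes and 51.5 FPKM of the hippocampal genes. HIP-SHAM 2 and HIP-SHAM 3 held 3.15 and 4.83 FPKM of the hypothalamic genes and 786 and 718 FPKM of the hippocampal genes. Each of these libraries labelled replicate 1 therefore carried marker levels nearer those of the other tissue, and whether they had been exchanged was not tested. HIP-SHAM 3 has the tissue label hypothalamus under a hippocampal title, and it was placed by its title.

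The libraries that stood apart were handled as follows. The study left out 1 hypothalamic Sham library, and SHAM 1 is left out of the tests below unless it is named as included. HIP-SHAM 1 is kept in the hippocampal test, and its results for the members and the KEGG oxytocin signaling pathway are also given without it. Group means, regional medians and the order of levels leave out both libraries. Choroid plexus genes, chiefly Ttr, summed to 14917 FPKM in SHAM 1, to 4355 and 5457 FPKM in HIP-SHAM 2 and HIP-SHAM 3, and to between 39.8 and 803 FPKM in HIP-PEL_10d. In the other hypothalamic libraries and HIP-SHAM 1 that sum lay between 11.1 and 28.5 FPKM.

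Oxtr, the oxytocin receptor, was a low-level transcript in every group. Its FPKM was 2.64 and 2.45 in SHAM 2 and SHAM 3, and 2.70, 2.53 and 2.52 in SHAM-GH. After the lesion it was 1.95, 2.10 and 1.76 in PEL_3d and 2.55, 2.22 and 1.5 in PEL_10d. With GH it was 1.80, 1.74 and 1.62 in PEL_3d-GH and 1.93, 1.70 and 2.12 in PEL_10d-GH. All 9 libraries of PEL_3d, PEL_3d-GH and PEL_10d-GH thus lay below all 5 of SHAM and SHAM-GH, whereas PEL_10d spread across both. In the hippocampus Oxtr stood at 2.47 and 3.02 FPKM in HIP-SHAM 2 and HIP-SHAM 3 and at 3.15, 3.59 and 3.18 FPKM in HIP-PEL_10d. The libraries against their labels had 1.75 FPKM in SHAM 1 and 2.24 FPKM in HIP-SHAM 1.

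Ordered by mean FPKM, Oxtr was highest in HIP-PEL_10d at 3.31 ± 0.248 (SD, n = 3), followed by HIP-SHAM at 2.75 ± 0.390 (n = 2). SHAM-GH followed at 2.58 ± 0.102, SHAM at 2.54 ± 0.136 (n = 2), PEL_10d at 2.09 ± 0.536 and PEL_3d at 1.94 ± 0.169. The lowest were PEL_10d-GH at 1.92 ± 0.211 and PEL_3d-GH at 1.72 ± 0.0893. Only the leading pair, HIP-PEL_10d and HIP-SHAM, had ranges that did not overlap, and all other neighbours in this order overlapped.

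Avpr1a, the V1a receptor, was close to Oxtr in level in the hypothalamus and close to the limit of detection in the hippocampus. Its FPKM was 1.94 and 1.99 in SHAM 2 and SHAM 3, and 2.63, 1.80 and 2.34 in SHAM-GH. It was 1.65, 2.15 and 1.38 in PEL_3d, and 1.44, 1.71 and 1.91 in PEL_3d-GH. At Day 10 it was 1.42, 2.04 and 2.41 in PEL_10d and 2.87, 2.01 and 2.38 in PEL_10d-GH. Each of these hypothalamic groups overlapped at least 1 other, with no group set apart from all the rest. PEL_10d-GH lay above SHAM and above PEL_3d-GH without overlap, and SHAM lay above PEL_3d-GH. All other pairs of these groups overlapped. In the hippocampus Avpr1a had 5 and 1 counts in HIP-SHAM 2 and HIP-SHAM 3 and 21, 8 and 6 counts in HIP-PEL_10d, which is 0.122, 0.022, 0.494, 0.167 and 0.143 FPKM. HIP-SHAM 1 had 103 counts (2.54 FPKM), a hypothalamic level, and SHAM 1 had 37 counts (0.905 FPKM), below every other hypothalamic library.

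The order of the Avpr1a means ran from PEL_10d-GH at 2.42 ± 0.431 FPKM through SHAM-GH at 2.26 ± 0.421, SHAM at 1.96 ± 0.0417 and PEL_10d at 1.96 ± 0.498. PEL_3d at 1.73 ± 0.392 and PEL_3d-GH at 1.69 ± 0.234 came next, and none of these 6 hypothalamic groups was separate from its neighbour. A gap followed, with HIP-PEL_10d at 0.268 ± 0.196 and HIP-SHAM at 0.072 ± 0.0707 (n = 2), and both of those steps were between ranges that did not overlap. The remaining vasopressin receptors were rarer in the hypothalamic libraries. Avpr1b, the V1b receptor, reached at most 1 count in those other than SHAM 1, which had 21. It had 2 to 30 counts in the hippocampal libraries. In HIP-SHAM 2 and HIP-SHAM 3 its 30 and 13 counts were above those of Avpr1a, whereas in every HIP-PEL_10d library it was below Avpr1a. Avpr2, the V2 receptor, had at most 4 counts in any library.

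Lnpep, the peptidase, had the highest hypothalamic median FPKM of the 4 genes and varied least, although Cd38 exceeded it in PEL_3d-GH 1 and 2. Its FPKM was 18.45 and 16.47 in SHAM 2 and SHAM 3, and 17.03, 19.31 and 16.99 in SHAM-GH. It was 15.91, 15.87 and 15.97 in PEL_3d, and 14.84, 15.48 and 13.50 in PEL_3d-GH. At Day 10 it was 15.13, 17.60 and 18.70 in PEL_10d and 15.102, 15.84 and 14.98 in PEL_10d-GH. Every library of PEL_3d, PEL_3d-GH and PEL_10d-GH lay below every library of SHAM and SHAM-GH, as for Oxtr, and PEL_10d again spanned them. The hippocampal values were 15.13 and 15.09 FPKM in HIP-SHAM 2 and HIP-SHAM 3 and 14.59, 13.01 and 12.34 FPKM in HIP-PEL_10d. SHAM 1 had 13.03 FPKM and HIP-SHAM 1 had 16.42 FPKM.

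By mean FPKM the order for Lnpep was SHAM-GH at 17.8 ± 1.33, SHAM at 17.5 ± 1.40 (n = 2), PEL_10d at 17.1 ± 1.83 and PEL_3d at 15.9 ± 0.0511. PEL_10d-GH at 15.3 ± 0.468, HIP-SHAM at 15.11 ± 0.0311 (n = 2), PEL_3d-GH at 14.6 ± 1.01 and HIP-PEL_10d at 13.3 ± 1.15 completed it. Among these neighbours only PEL_3d and PEL_10d-GH had ranges that did not overlap.

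Cd38, the maker of cyclic ADP-ribose, varied most among the hypothalamic groups. Its FPKM was 9.95 and 9.51 in SHAM 2 and SHAM 3, and 7.13, 8.66 and 8.70 in SHAM-GH. After the lesion it was 11.9, 9.57 and 14.5 in PEL_3d and 10.8, 8.88 and 10.2 in PEL_10d. With GH it was 18.50, 19.89 and 12.83 in PEL_3d-GH and 12.04, 13.85 and 12.49 in PEL_10d-GH. All 6 lesion libraries with GH were above all 5 Sham libraries, with or without GH, while PEL_3d and PEL_10d overlapped SHAM. Within PEL_3d-GH the third library was well below the first and second. Hippocampal Cd38 was 4.31 and 3.22 FPKM in HIP-SHAM 2 and HIP-SHAM 3 and 3.55, 2.94 and 3.90 FPKM in HIP-PEL_10d. SHAM 1 had 4.87 FPKM, within reach of the hippocampal values, and HIP-SHAM 1 had 9.02 FPKM, within the hypothalamic range.

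Cd38 was highest by mean FPKM in PEL_3d-GH at 17.1 ± 3.74, then in PEL_10d-GH at 12.8 ± 0.941, PEL_3d at 11.99 ± 2.45 and PEL_10d at 9.98 ± 1.002. SHAM at 9.73 ± 0.308 (n = 2) and SHAM-GH at 8.16 ± 0.893 followed, and HIP-SHAM at 3.76 ± 0.772 (n = 2) and HIP-PEL_10d at 3.47 ± 0.484 came last. SHAM and SHAM-GH did not overlap, nor did SHAM-GH and HIP-SHAM, and the other neighbours did.

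**Figure D1:**
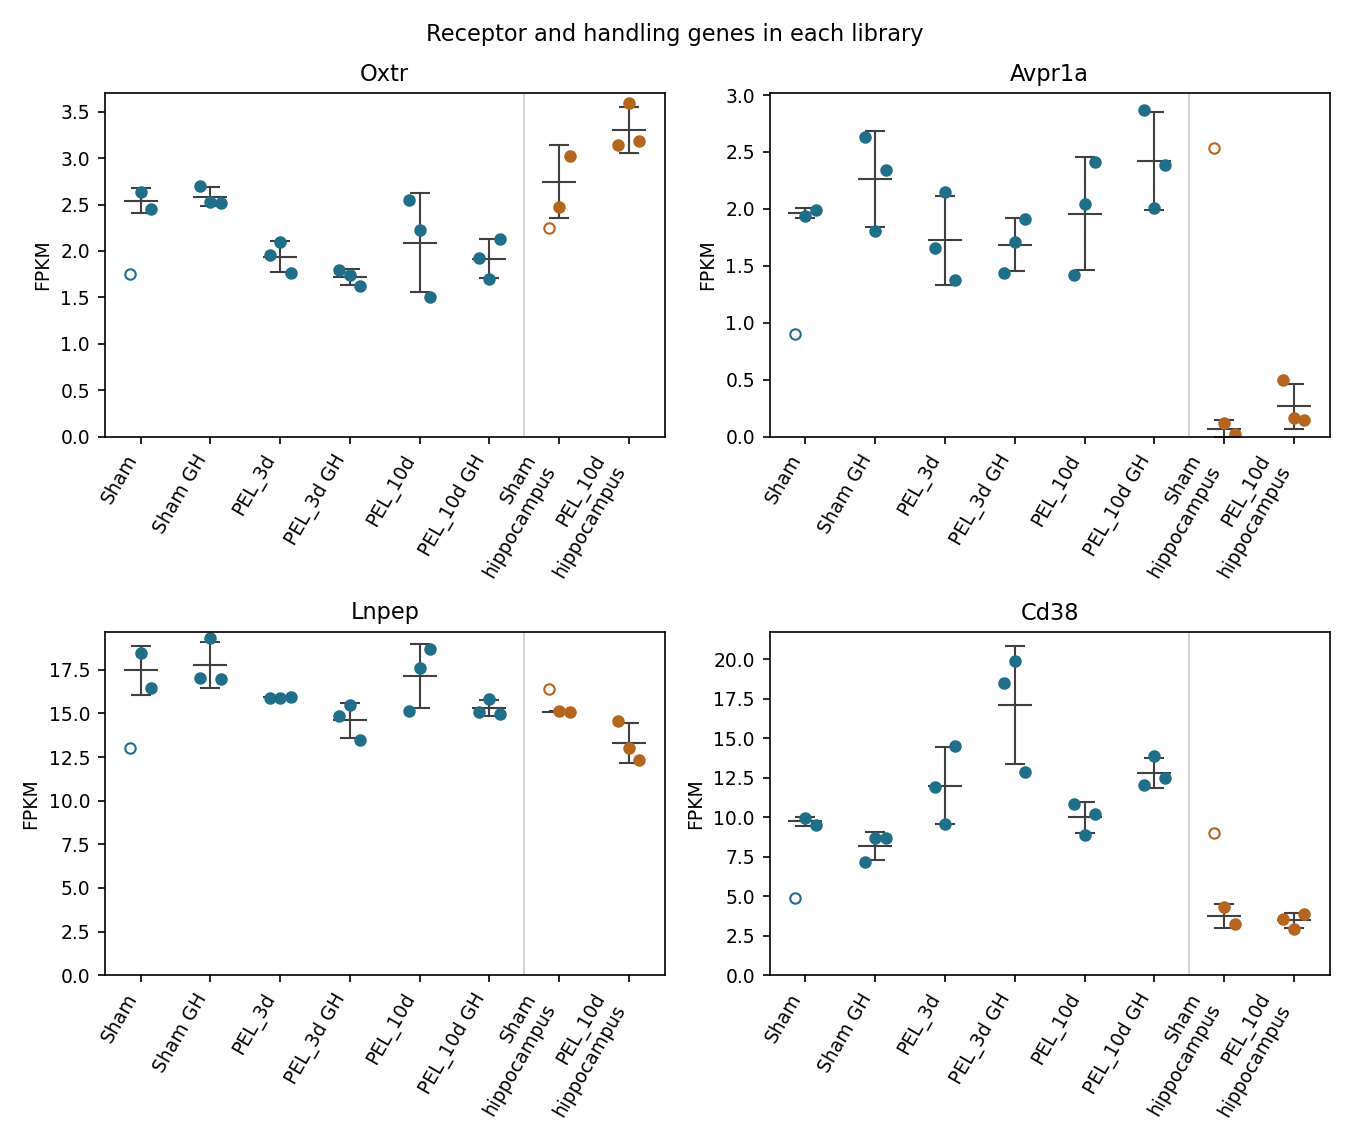
FPKM of Oxtr, Avpr1a, Lnpep and Cd38 in each of the 24 libraries, by group, with the group mean and SD as bars; open circles are SHAM 1 and HIP-SHAM 1, which the means leave out. Cd38 is above 12 FPKM in all 6 lesion libraries with GH, and Avpr1a is under 0.5 FPKM in the 5 hippocampal libraries shown as filled points.

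Across the 17 hypothalamic libraries the coefficient of variation of FPKM was 9.46% for Lnpep, 18.7% for Oxtr, 21.3% for Avpr1a and 29.4% for Cd38. The median FPKM was 15.9 for Lnpep, 10.8 for Cd38, 2.10 for Oxtr and 1.99 for Avpr1a. Of all genes listed, 78.1% had a lower hypothalamic median than Lnpep, 70.7% a lower one than Cd38, 46.0% a lower one than Oxtr and 45.6% a lower one than Avpr1a. The enzymes were thus in the upper part of the table and the receptors near its middle.

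The first question was how the hypothalamic lesion groups without GH differed from SHAM. At Day 3 Oxtr and Lnpep lay below SHAM in 3 of 3 libraries, Cd38 was above both SHAM libraries in 2 of 3, and Avpr1a overlapped. In bulk tissue, fewer cells of a type and less RNA per cell cannot be told apart, which holds for every difference below. By edgeR 0 of 4 members passed an adjusted p of 0.05, against 40.5% of the 14905 genes tested. At an unadjusted p under 0.05 there were 1 of 4 members (Oxtr) and 7269 genes. DESeq2 called 0 of 4 as well, with 0 at the unadjusted threshold. The log2 fold change of Oxtr was −0.36 ± 0.16 (SE), with a 95% interval from −0.72 to −0.01 and an adjusted p of 0.0961. For Avpr1a it was −0.21 ± 0.23, interval −0.72 to 0.31, adjusted p = 0.517. Lnpep gave −0.15 ± 0.07, interval −0.31 to 0.00, adjusted p = 0.109, and Cd38 gave 0.28 ± 0.15, interval −0.05 to 0.61, adjusted p = 0.155. For Avpr1a, Lnpep and Cd38 these intervals reach 0 or run to both sides of it, and no change of a member is shown.

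The Day 3 values moved when single libraries were left out or SHAM 1 was included. Without PEL_3d 2, the library lowest in Cd38, the Cd38 difference was 0.44 with an adjusted p of 0.00712, and over its 12 alternatives that p ranged from 0.00712 to 0.489. With SHAM 1 included, edgeR called 0 of 4 members and 11.4% of all genes tested, with 0 of 4 members and 3914 genes at the unadjusted threshold. The log2 fold changes were then −0.21 for Oxtr, 0.08 for Avpr1a, −0.03 for Lnpep and 0.54 for Cd38. The ligands' own transcripts, by contrast, fell at Day 3, Oxt with a log2 fold change of −1.43 (adjusted p = 0.0119) and Avp with a log2 fold change of −2.76 (adjusted p = 1.83e-06). These calls held in 8 and 10 of 12 alternatives, over which Oxt ran from −1.93 to −0.64 and Avp from −3.05 to −2.16. Oxt itself stood at 89.0 and 222 FPKM in SHAM 2 and SHAM 3.

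At Day 10 the 4 genes were closer to SHAM than at Day 3, and every one overlapped it. EdgeR called 0 of 4, with 9.4% of 14801 genes called in that comparison. At an unadjusted p under 0.05 there were 0 of 4 members, as with DESeq2, and 3631 genes by edgeR. Oxtr differed by −0.22 ± 0.22 (interval −0.72 to 0.28) and Avpr1a by −0.02 ± 0.25 (interval −0.59 to 0.54). Lnpep differed by −0.05 ± 0.10 (interval −0.28 to 0.18) and Cd38 by 0.01 ± 0.10 (interval −0.22 to 0.25). Their adjusted p-values lay between 0.591 and 0.968. The intervals of the receptors were thus wider than those of Lnpep and Cd38. With SHAM 1 included the call count was again 0 of 4, against 1.84% of all genes, and 0 of 4 before adjustment, against 1587 genes. The log2 fold changes were then −0.08 for Oxtr, 0.25 for Avpr1a, 0.06 for Lnpep and 0.27 for Cd38. Oxt (−2.17, adjusted p = 0.00396) and Avp (−1.38, adjusted p = 0.00604) fell, in 10 and 9 of 12 alternatives. Over these, Oxt ran from −2.68 to −1.37 and Avp from −1.68 to −0.79.

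PEL_10d was also compared with PEL_3d directly. None of the members passed: edgeR called 0 of 4 against 18.5% of 14807 genes, with 0 of 4 members and 5021 genes before adjustment. DESeq2 called 0 of 4. The differences were 0.15 for Oxtr (interval −0.30 to 0.60), 0.19 for Avpr1a (−0.36 to 0.75), 0.11 for Lnpep (−0.07 to 0.30) and −0.26 for Cd38 (−0.59 to 0.06). Without PEL_10d 1, the lowest of its group in Lnpep, Lnpep passed at 0.20 (adjusted p = 0.0462), the smallest p of its 12 alternatives, whose largest was 0.788. Avp rose between the days by 1.38 (adjusted p = 0.00113), and Oxt differed by −0.73 (adjusted p = 0.105).

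A second question was whether the lesion groups that received GH differed from Sham mice that received it. Here 3 of the 4 genes passed by edgeR at both days, beside 52.1% of all genes at Day 3 and 30.9% at Day 10. The Day 10 calls were less firm, as given below. Cd38 was higher, and Oxtr and Lnpep were lower, in every lesion library than in every SHAM-GH library. How many of all genes lacked overlap was not counted, here or in any other comparison. At Day 3 Cd38 was 2.05-fold higher in PEL_3d-GH than in SHAM-GH (log2 1.04 ± 0.16, interval 0.69 to 1.39, adjusted p = 0.000366). Oxtr was at 0.632 of its SHAM-GH level (log2 −0.66 ± 0.13, interval −0.96 to −0.36, adjusted p = 0.00214). Lnpep was at 0.808 of it (log2 −0.31 ± 0.08, interval −0.48 to −0.14, adjusted p = 0.00658). Avpr1a gave −0.44 ± 0.20, interval −0.89 to 0.00, and did not pass (adjusted p = 0.0898).

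That count of 3 of 4 stands beside 52.1% of 14743 genes called in the same comparison, 3973 higher and 3708 lower. The 3 calls held in each of their 12 alternatives. Avpr1a passed in 1 of its 12, without SHAM-GH 2, the lowest of its group, where it was −0.58 with an adjusted p of 0.0479, and its adjusted p reached 0.635 elsewhere. Oxt (−0.94, adjusted p = 0.0372) and Avp (−1.58, adjusted p = 0.0402) fell, but in only 7 and 5 of 12 alternatives.

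At Day 10 with GH the same 3 genes passed, each with a smaller estimate than at Day 3, a difference that was not tested. Cd38 was 1.54-fold higher in PEL_10d-GH than in SHAM-GH (log2 0.62 ± 0.10, interval 0.41 to 0.84, adjusted p = 0.00112). Oxtr was at 0.736 of SHAM-GH (log2 −0.44 ± 0.13, interval −0.72 to −0.16, adjusted p = 0.023), and Lnpep at 0.848 (log2 −0.24 ± 0.06, interval −0.37 to −0.10, adjusted p = 0.0143). Avpr1a showed no difference that passed, 0.08 with an interval from −0.34 to 0.50. The share of genes called was 30.9% of 14686. Oxt (−0.59, adjusted p = 0.0547) and Avp (−0.32, adjusted p = 0.107) did not pass.

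These Day 10 calls were less firm than those of Day 3. A single fit over all groups ended all 3, at adjusted p = 0.0918 for Oxtr, 0.0737 for Lnpep and 0.0782 for Cd38, with nearly the same log2 fold changes of −0.43, −0.23 and 0.64. Oxtr also missed the threshold by DESeq2 (−0.44, adjusted p = 0.053), without PEL_10d-GH 2 (−0.37, 0.0835), without SHAM-GH 1 (−0.39, 0.089) and without SHAM-GH 2 (−0.44, 0.0623). Lnpep missed it without SHAM-GH 2 (−0.17, 0.0661). Over the 12 alternatives the adjusted p ranged from 0.0234 to 0.0918 for Oxtr, from 0.00368 to 0.0737 for Lnpep and from 1.17e-06 to 0.0782 for Cd38.

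**Figure D2:**
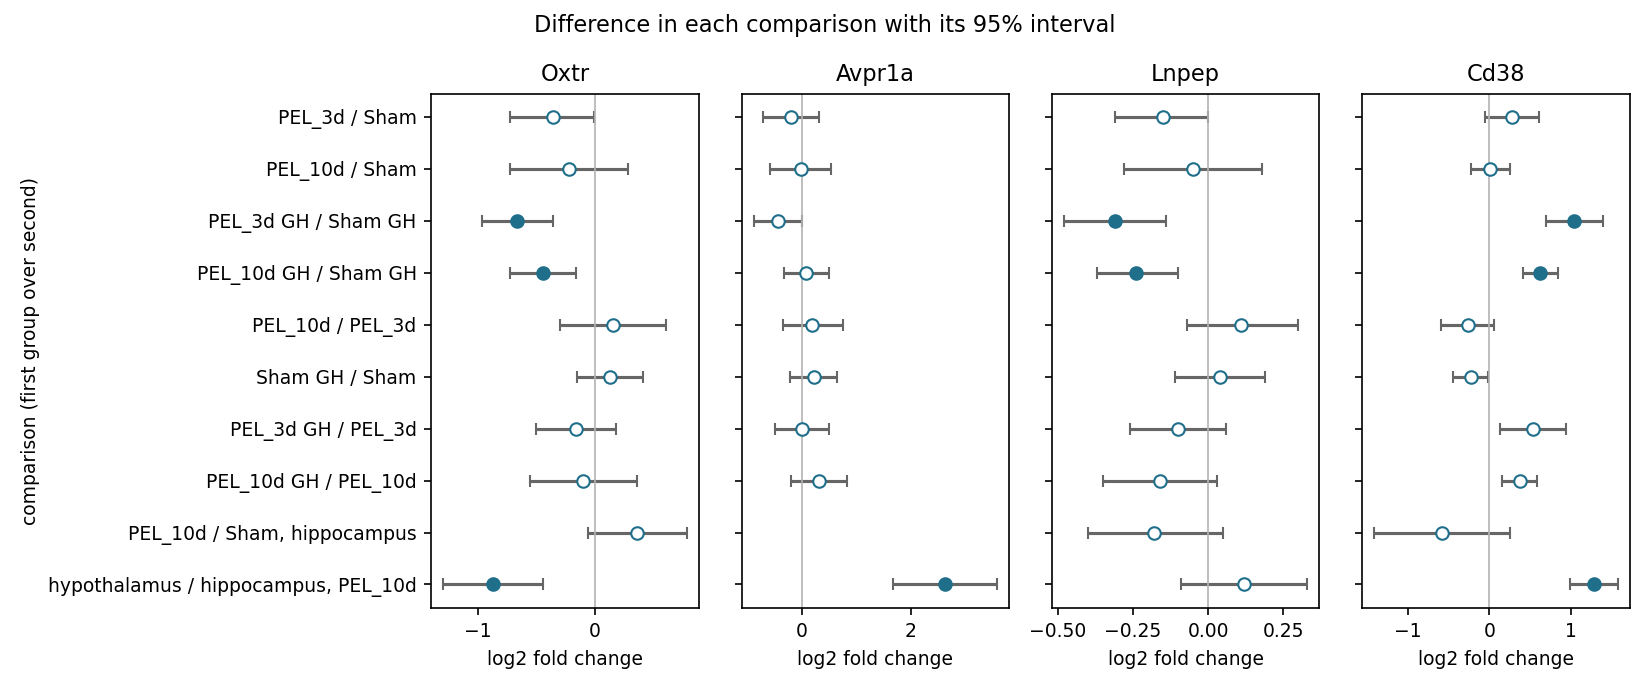
Log2 fold change of the 4 genes in the hypothalamic comparisons and the comparisons with the hippocampus, with 95% intervals from edgeR; filled points passed an adjusted p of 0.05. In the lesion comparisons with GH, Cd38 is above 0 and Oxtr and Lnpep are below 0, with intervals that leave out 0.

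Because 3 genes passed with GH and none without it, the difference between these lesion effects was tested itself, as an interaction chosen after seeing the data. At Day 3 edgeR called 0 of 4 members and 0.0462% of 15164 genes. At an unadjusted p under 0.05 there were 1 of 4 members (Cd38) and 1594 genes, and DESeq2 gave the same member counts. The Cd38 lesion effect was larger with GH by 0.75 ± 0.24 on the log2 scale (interval 0.23 to 1.27), with an adjusted p of 0.285. Without PEL_3d-GH 3, the library low in Cd38, this was 0.92 with an adjusted p of 0.0244, beside 4.18% of all genes called, and across 17 alternatives the p reached 0.64. For Oxtr the interaction was −0.30 (interval −0.72 to 0.11), for Avpr1a −0.24 (−0.90 to 0.42) and for Lnpep −0.16 (−0.39 to 0.07).

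At Day 10 the interaction for Cd38 was 0.61 ± 0.15 (interval 0.29 to 0.93, adjusted p = 0.212). EdgeR called 0 of 4 members and 0 of 15116 genes (0%), with 1 of 4 members and 1366 genes at an unadjusted p under 0.05. DESeq2 called 96 genes, Cd38 among them, at 0.61 with an adjusted p of 0.0492, the smallest over its 17 alternatives, which reached 0.679. Oxtr gave −0.22 (interval −0.77 to 0.33), Avpr1a 0.10 (−0.59 to 0.79) and Lnpep −0.19 (−0.46 to 0.08). A dependence of the lesion effect on GH is thus not shown for any member by edgeR. For the ligands the interactions were 0.48 (Oxt) and 1.16 (Avp) at Day 3 and 1.57 and 1.06 at Day 10, with adjusted p from 0.277 to 0.84.

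The direct effect of GH was asked in each of the hypothalamic states. In Sham mice Cd38 was lower with GH in 3 of 3 libraries, at −0.23 ± 0.10 (interval −0.45 to −0.02), but this did not pass (adjusted p = 0.294). EdgeR called 0 of 4 members against 1.09% of 14539 genes, with 1 of 4 members (Cd38) and 2187 genes before adjustment. DESeq2 gave 0 of 4 at either threshold. Oxtr (0.13, interval −0.15 to 0.41), Avpr1a (0.22, −0.22 to 0.65) and Lnpep (0.04, −0.11 to 0.19) overlapped between the groups. With SHAM 1 included edgeR called 0% of 14404 genes and 0 of 4 members, 787 genes and 0 members passed before adjustment, and Cd38 stood at 0.01. Oxt (−0.76, adjusted p = 0.239) and Avp (−0.41, adjusted p = 0.183) did not pass.

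In lesioned mice the GH estimate for Cd38 had the opposite sign to that in Sham mice. At Day 3 PEL_3d-GH exceeded PEL_3d by 0.53 ± 0.18 (interval 0.13 to 0.94, adjusted p = 0.695), with the third GH library inside the PEL_3d range. The count called was 0 of 4 by edgeR, against 0.027% of 14798 genes. Before adjustment edgeR gave 1 of 4 members (Cd38) and 1006 genes, and the member counts were the same by DESeq2. Lnpep was lower with GH in 3 of 3 libraries, at −0.10 (interval −0.26 to 0.06), and Oxtr (−0.16, −0.50 to 0.18) and Avpr1a (−0.01, −0.50 to 0.49) overlapped. At Day 10 Cd38 was higher in 3 of 3 PEL_10d-GH libraries than in any PEL_10d library, at 0.37 ± 0.10 (interval 0.15 to 0.58, adjusted p = 0.698). EdgeR called 0 of 4 members and 0 of 14763 genes (0%), with 1 of 4 (Cd38) and 906 genes at an unadjusted p under 0.05, and DESeq2 called 39 genes and no member.

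The other 3 genes overlapped between PEL_10d-GH and PEL_10d. Oxtr gave −0.10 (interval −0.55 to 0.36), Avpr1a 0.31 (−0.20 to 0.82) and Lnpep −0.16 (−0.35 to 0.03). The interaction values above are also the test of whether the GH effect differs between lesioned and Sham mice, and they did not pass for Cd38 by edgeR. Oxt and Avp differed by −0.26 and 0.78 with GH at Day 3 and by 0.81 and 0.65 at Day 10, with adjusted p from 0.386 to 0.937.

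Markers of other cells moved with Cd38 in part of the hypothalamic comparisons. The summed FPKM of 8 of 8 microglial genes, with none at 0, was 151 and 142 in SHAM 2 and SHAM 3 and 111, 129 and 116 in SHAM-GH. It was 660, 682 and 714 in PEL_3d, 840, 778 and 639 in PEL_3d-GH, 349, 315 and 358 in PEL_10d, and 424, 494 and 420 in PEL_10d-GH. The microglial sum was thus above every Sham library in all 12 lesion libraries, including those of PEL_10d, whose Cd38 overlapped SHAM. In PEL_3d-GH the third library, lowest in Cd38, also had the lowest microglial sum, but in PEL_3d the second, lowest in Cd38, was between the others in that sum.

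A list of 8 macrophage activation genes, led by Spp1 or Lyz2, moved likewise. Its sum was 49.6 and 52.8 FPKM in SHAM 2 and SHAM 3 and 40.2, 56.3 and 31.8 in SHAM-GH, with Mmp12 at 0 in SHAM 3, SHAM-GH 2 and SHAM-GH 3. It was 2426, 1618 and 3948 in PEL_3d, 6956, 6901 and 3541 in PEL_3d-GH, 1098, 286 and 1180 in PEL_10d, and 453, 848 and 1437 in PEL_10d-GH. In PEL_3d the second library was lowest in both this sum and Cd38, and so was the second of PEL_10d, which was also lowest in the microglial sum. In PEL_10d-GH the third had the highest macrophage sum, whereas the second had the highest Cd38 and the highest microglial sum. The group means of this sum were 855 FPKM in PEL_10d and 913 FPKM in PEL_10d-GH, whose Cd38 ranges did not overlap. The microglial sum, by contrast, separated PEL_10d-GH from PEL_10d and SHAM from SHAM-GH in the direction of Cd38. Lymphocyte genes were low, 0.079 to 3.32 FPKM for the sum of 8 genes, but the 6 hypothalamic Day 10 lesion libraries, at 2.06 to 3.32 FPKM, were above all Sham libraries, at most 1.01 FPKM. The part of these cells in the Cd38 difference was not tested.

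**Figure D3:**
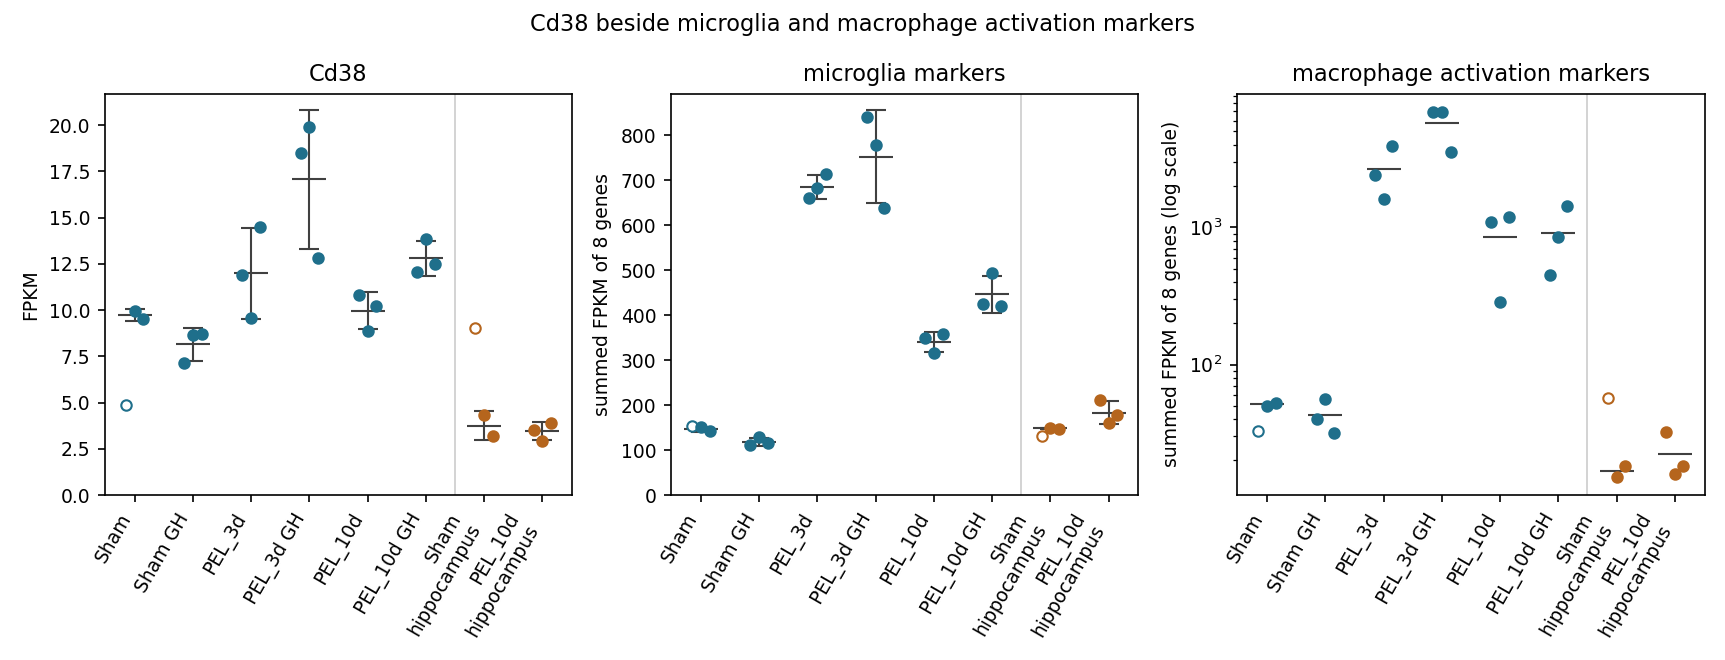
FPKM of Cd38 and summed FPKM of the 8 microglial and the 8 macrophage activation genes in each library, by group, with the mean and SD as bars (mean alone in the macrophage panel, on a log scale); open circles are SHAM 1 and HIP-SHAM 1, left out of the means. PEL_3d-GH 1 and 2 are highest in Cd38 and in both sums.

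Neuronal markers were lower in the groups low in Oxtr and Lnpep, and within groups they ran with these genes in some cases and against them in others. The summed FPKM of 7 of 7 neuronal genes, led by Snap25 with none at 0, was 1271 and 1221 in SHAM 2 and SHAM 3 and 1341, 1265 and 1411 in SHAM-GH. It was 1034, 1145 and 1012 in PEL_3d, 909, 893 and 1106 in PEL_3d-GH, 1061, 1174 and 1148 in PEL_10d, and 1142, 1099 and 1085 in PEL_10d-GH. All lesion libraries were below all Sham libraries in this sum, PEL_10d included, where Oxtr and Lnpep overlapped SHAM. PEL_3d-GH 3 had the highest neuronal sum of its group and the lowest Oxtr and Lnpep, and PEL_10d 1 and PEL_10d-GH 3 had the lowest sums of theirs with the highest Oxtr but the lowest Lnpep. In PEL_3d the libraries had the same order in Oxtr and in the neuronal sum. Its part in the Oxtr and Lnpep differences was not tested.

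Other lists of markers gave these group means. Astrocyte genes summed to 1105 FPKM in SHAM (n = 2), 1171 in SHAM-GH, 1870 in PEL_3d, 1957 in PEL_3d-GH, 1518 in PEL_10d and 1794 in PEL_10d-GH. Oligodendrocyte genes summed to 2522, 2393, 2458, 2599, 3546 and 4207 FPKM in the same order, and endothelial genes to 72.6, 70.3, 123, 108, 97.2 and 92.6 FPKM. Astrocyte and oligodendrocyte sums were higher in 3 of 3 PEL_10d-GH libraries than in any PEL_10d library. Thalamic genes summed to 247, 250, 206, 195, 245 and 235 FPKM. Anterior pituitary genes reached at most 34.5 FPKM in hypothalamic libraries other than PEL_10d-GH 3, which had 76.1 FPKM, as well as 6645 FPKM of the hypothalamic list, mostly Pomc. Of the members, that library was highest of its group in Oxtr and lowest in Lnpep, and between the others in Avpr1a and Cd38.

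The hippocampus was compared between lesioned and Sham mice. Oxtr was higher in 3 of 3 HIP-PEL_10d libraries than in any HIP-SHAM library, and Lnpep was lower in 3 of 3, but neither passed the test. EdgeR called 0 of 14039 genes (0%) and 0 of the 3 members tested, with 1434 genes and 0 members at an unadjusted p under 0.05, and DESeq2 called 231 genes and no member. Oxtr differed by 0.36 ± 0.17 (interval −0.06 to 0.78, adjusted p = 0.527), Lnpep by −0.18 ± 0.09 (−0.40 to 0.05, 0.549) and Cd38 by −0.58 ± 0.34 (−1.41 to 0.25, 0.581). Avpr1a had too few counts to be tested.

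Without HIP-SHAM 1 the Cd38 difference shrank to −0.14 and Oxtr and Lnpep stood at 0.23 and −0.21. EdgeR then called 6.15% of 14191 genes and 0 of 3 members, with 3471 genes and 1 of 3 members at an unadjusted p under 0.05. This was the only leave-out fit in which every library had hippocampal marker levels. Over the 6 edgeR fits that each left out 1 library, the lowest adjusted p was 0.343 for Oxtr, 0.126 for Lnpep and 0.534 for Cd38. Marker sums differed between the hippocampal groups too. The microglial sum was 149 and 147 FPKM in HIP-SHAM 2 and HIP-SHAM 3 and 211, 160 and 179 FPKM in HIP-PEL_10d, and the neuronal sum was 2154 and 2105 against 1973, 2036 and 2049 FPKM. Choroid plexus genes summed to 4355 and 5457 FPKM against 136, 39.8 and 803 FPKM, and thalamic genes to 31.9 and 22.8 against 85.8, 53.9 and 37.6 FPKM, with no overlap in any of these 4 sums. Astrocyte genes (820 and 931 against 1003 to 1074 FPKM) and endothelial genes (60.3 and 67.8 against 67.9 to 75.2) did not overlap either. Nor did lymphocyte genes, which were low in both groups (0.088 and 0.079 against 0.135 to 0.749). The macrophage activation, oligodendrocyte, hypothalamic, hippocampal and anterior pituitary sums overlapped. The part of cell composition in the Oxtr and Lnpep values was not tested.

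Regions were compared between PEL_10d and HIP-PEL_10d, where no library went against its label. Avpr1a and Cd38 were higher in the hypothalamus and Oxtr was higher in the hippocampus, with no overlap for any of them. Avpr1a was 6.19-fold higher in the hypothalamus (log2 2.63 ± 0.42, interval 1.67 to 3.59, adjusted p = 0.000562), and Cd38 was 2.43-fold higher (log2 1.28 ± 0.13, 0.99 to 1.57, 2.73e-05). Without HIP-PEL_10d 1, the highest of its group in Avpr1a, the log2 difference of Avpr1a was 3.36, and over its 11 alternatives it ranged from 2.34 to 3.36. Oxtr in the hypothalamus was at 0.549 of its hippocampal level (log2 −0.87 ± 0.19, −1.29 to −0.44, 0.00309). Lnpep differed by 0.12 (interval −0.09 to 0.33, adjusted p = 0.281), also with no overlap. The 3 of 4 members called stand beside 60.6% of 14561 genes, so most genes differed between the regions. Each call held in every alternative that gave a value, and Avpr1a had none at a mean count of at least 50.

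Over the libraries other than SHAM 1 and HIP-SHAM 1, with HIP-SHAM 3 counted as hippocampal, the regional pattern had the same order. The median FPKM of Avpr1a was 1.99 in 17 hypothalamic and 0.143 in 5 hippocampal libraries, a ratio of 13.9, and that of Cd38 was 10.8 and 3.55, a ratio of 3.05. For Oxtr the medians were 2.10 and 3.15 FPKM and for Lnpep 15.9 and 14.6 FPKM. Neuronal genes were also higher in the hippocampus, at 2019 ± 41.1 FPKM in HIP-PEL_10d against 1128 ± 59.1 in PEL_10d (SD, n = 3 each), and microglial genes were lower, at 183 ± 25.7 against 341 ± 22.3. The part of cell composition in these regional differences was not tested.

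The lesion effect in the hippocampus was set against that in the hypothalamus with an interaction term. EdgeR called 0 of 4 members and 1.88% of 15093 genes, with 0 of 4 members and 2242 genes before adjustment. DESeq2 called 0 of 4 members. The difference was 0.59 for Oxtr (interval −0.12 to 1.29), −1.56 for Avpr1a (−5.10 to 1.97), −0.13 for Lnpep (−0.46 to 0.20) and −0.60 for Cd38 (−1.52 to 0.33). Without HIP-SHAM 1 it was 0.49, 1.91, −0.13 and −0.13, with 0 of 4 members and 10.7% of 15053 genes called. The sign for Avpr1a thus rested on that library.

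Genes that act with the receptors were counted in lists. Beside every list count stand the shares of all genes called, 40.5% in PEL_3d and 9.4% in PEL_10d against SHAM, and 52.1% in PEL_3d-GH and 30.9% in PEL_10d-GH against SHAM-GH. No test compared a list with all genes. Of 12 genes of Gq signalling, 4 rose and 5 fell in PEL_3d against SHAM, with a median log2 fold change of −0.219 beside −0.0115 over all genes tested. Plcb2, a phospholipase C beta better known from blood cells, rose by 2.23 ± 0.24 (adjusted p = 5.39e-05), and Itpr3 and Plcb3 rose by 1.23 (0.000296) and 0.67 (0.00105). At Day 10 2 rose and none fell, with a median of −0.00823 beside −0.012, Plcb2 at 1.08 (0.0495) and Itpr2, a calcium channel of the endoplasmic reticulum, at 0.43 (0.0136). Those Day 10 calls held in 6 and 8 of 12 alternatives. With GH 3 rose and 8 fell at Day 3, with a median of −0.322 beside −0.00161, Plcb2 at 2.68 (1.9e-05) and Plcb4 at −0.78 (0.000107). At Day 10 with GH 3 rose and 4 fell, with a median of −0.114 beside −0.00889.

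Genes that switch such receptors off formed a list of 9 kinases, arrestins and RGS proteins. In PEL_3d 1 rose and 2 fell (median −0.0782), with Grk3, a receptor kinase, at −0.48 (adjusted p = 0.000506), Arrb2 at 0.27 (0.0264) and Rgs4 at −0.27 (0.0344), which held in 11, 8 and 6 of 12 alternatives. In PEL_10d 0 of 9 passed by edgeR (median −0.0471). With GH 1 rose and 5 fell at Day 3 (median −0.172), with Grk3 at −0.60 (5.92e-05), Rgs4 at −0.55 (0.00177) and Arrb2 at 0.48 (0.00133), each in 12 of 12 alternatives. At Day 10 with GH none rose and 4 fell (median −0.217), led by Rgs4 at −0.58 (0.00202). Rgs4 rose by 0.36 (adjusted p = 0.0301) in SHAM-GH against SHAM, which held in 7 of 12 alternatives.

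Peptidases other than Lnpep that can cleave neuropeptides or angiotensins were counted too. Of 9, 5 rose and 1 fell in PEL_3d (median 0.304), 2 rose and none fell in PEL_10d (median 0.104), 6 rose and 1 fell in PEL_3d-GH against SHAM-GH (median 0.41) and 4 rose and none fell in PEL_10d-GH (median 0.0229). Anpep, aminopeptidase N, led each count, at 1.86 (adjusted p = 0.000273), 2.66 (0.0127), 2.64 (2.2e-05) and 2.88 (0.000735), although at Day 10 without GH it passed in 9 of 12 alternatives. Enpep, aminopeptidase A, rose by 0.95 (0.00633) and 1.12 (0.00179) in the comparisons with GH. In the regional interaction Ace, the angiotensin-converting enzyme, had a hippocampal lesion effect below the hypothalamic one by a log2 difference of −2.82 (adjusted p = 0.0325), which held in 7 of 17 alternatives and was −3.12 (adjusted p = 0.000118) without HIP-SHAM 1. The choroid plexus sums given above differed between HIP-SHAM 2 and 3 and HIP-PEL_10d as well, and their part in the Ace value was not tested.

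Partners of Lnpep in its storage vesicles formed a list of 6. Of these, 1 fell in PEL_3d, which was Vamp2 at −0.40 (adjusted p = 0.0049, 10 of 12 alternatives), and 0 of 6 passed in PEL_10d by edgeR. With GH 2 fell at Day 3, Vamp2 at −0.45 (0.00366) and Tnks, which binds Lnpep, at −0.35 (0.00208). At Day 10 with GH 1 rose and 1 fell, with Slc2a4, the insulin-responsive glucose transporter that travels with Lnpep, at 1.25 (0.00198). The medians of this list were 0.0529, −0.00331, 0.0255 and −0.000899 in these comparisons.

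Around Cd38, a list of 13 genes covers cyclic ADP-ribose and NAD. In PEL_3d 4 rose and 5 fell (median 0.0539), and in PEL_10d 2 rose and none fell (median 0.107). With GH 5 rose and 4 fell at Day 3 (median 0.139) and 2 rose and 3 fell at Day 10 (median −0.048). Bst1, the close relative of Cd38 that also makes cyclic ADP-ribose, rose by 4.81 ± 0.62 (adjusted p = 0.000166) in PEL_3d, by 3.06 (0.0422) in PEL_10d and by 4.28 ± 0.45 (3.9e-05) in PEL_3d-GH. Its PEL_10d call held in 5 of 8 alternatives that gave a value, and its Day 3 calls in all of theirs. In PEL_10d-GH against SHAM-GH, Bst1 was not among the called genes of this list with the largest change. Those were Gja1 at 0.58 (adjusted p = 3e-04), Ryr3 at −0.49 (0.0023) and Ryr2 at −0.44 (0.00212). The ryanodine receptors, channels that cyclic ADP-ribose is known to open, fell where they passed against Sham, Ryr1 by 1.14 (0.00298) in PEL_3d and by 1.29 (0.00361) in PEL_3d-GH, and Ryr3 by 1.06 (3.05e-05) in the latter.

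Genes of peptide release and transport formed a list of 6. In PEL_3d 0 rose and 4 fell (median −0.33), with Cadps2, a factor of dense-core vesicle release, at −0.57 (adjusted p = 0.00026), Snap25 at −0.35 (0.00458) and Cadps at −0.31 (0.0083), which held in 11, 9 and 8 of 12 alternatives. In PEL_10d 1 fell (median −0.153), Cadps2 at −0.39 (0.0399, 7 of 12). With GH 5 fell at Day 3 (median −0.504) and 4 fell at Day 10 (median −0.268), led by Cadps at −0.71 (0.000156) and −0.39 (0.000607), each in 12 of 12 alternatives. Syt1 and Snap25 are in the neuronal list as well, so these counts overlap the neuronal sum given above.

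The deposited table also assigns 155 genes to the KEGG oxytocin signaling pathway, a list taken up after the files were seen. Of the 137 tested in PEL_3d, 36 rose and 49 fell (median −0.136), and of 139 tested in PEL_10d, 9 rose and 2 fell (median −0.0348). With GH 37 rose and 65 fell of 137 at Day 3 (median −0.175), and 29 rose and 49 fell of 137 at Day 10 (median −0.133). The shares of all genes called were 40.5%, 9.4%, 52.1% and 30.9% in the same order. In the hippocampus 0 of 136 passed by edgeR (median 0.101), where no gene of the whole table did, and without HIP-SHAM 1 7 rose and 4 fell beside 6.15% of all genes. The hypothalamic comparisons share their Sham libraries by GH state, so their counts are not independent of each other.

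Between the days without GH, 18.5% of all genes were called. In PEL_10d against PEL_3d the Gq list had 3 of 12 higher and 2 lower (median 0.14 beside 0.0134 over all genes), the desensitisation list 1 and 1 of 9, the peptidases 0 and 2 of 9, the cyclic ADP-ribose and NAD list 2 and 3 of 13, and the vesicle and release lists none. Plcb2 at −1.14 (adjusted p = 0.000814) and Bst1 at −1.74 (0.0331, in 8 of 12 alternatives) were lower at Day 10 than at Day 3. GH against no GH in lesioned mice gave 0 list genes called at either day by edgeR, and so did both interactions with GH.

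Between the regions 60.6% of all genes were called, and the lists stood as follows. Of the Gq list 5 were higher in the hypothalamus and 7 in the hippocampus (median −0.636 beside 0.0188 over all genes), with Plcb4 at 2.09 (adjusted p = 0.000128). Of the 9 peptidases 4 were higher and 2 lower in the hypothalamus, and Anpep stood at 3.94 (7.59e-05). The desensitisation list had 1 higher and 5 lower, led by Rgs14 at −3.71 (5.45e-06), and the vesicle partners 3 higher and 2 lower, led by Slc2a4 at 2.95 (3.15e-05). Of 12 cyclic ADP-ribose and NAD genes tested 1 was higher and 7 were lower, Ryr2 at −1.93 (1.23e-07) among the latter, so Cd38 stood on the other side from most of that list. The release list had 1 higher and 4 lower, led by Syt1 at −1.56 (7.17e-07), and the ligands were higher, Oxt at 7.50 (1.14e-06) and Avp at 8.07 (4.63e-07). Of 138 tested KEGG genes 48 were higher and 73 lower in the hypothalamus (median −0.31).

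Genes whose FPKM followed each member most closely were found across 17 hypothalamic libraries, among 13369 genes with a mean FPKM of at least 1. For Oxtr they were Calb1, Tmem35a and Ssx2ip, with Pearson r of 0.90, 0.90 and 0.89 on log2(FPKM + 1). For Avpr1a they were Htr2c, Jade2 and Cygb, with r of 0.85, 0.83 and 0.82. Lnpep was followed by Taok1, Ube3a and Ptch1, with r of 0.96, 0.93 and 0.92, and Cd38 by B3gnt7, Hp and Mcmbp, with r of 0.94, 0.94 and 0.91. The libraries share their groups, so these values describe group differences and library composition as much as single libraries.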

How the data were processed

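RNA was measured by mRNA sequencing in 24 libraries. According to the study's methods, the authors aligned reads with Hisat2 and counted them with featureCounts. The labels name GRCm38 and mm10. The authors deposited expected counts (estimated counts, 8.22% of them not whole) and FPKM values, and the step that gives fractional counts is not described. Counts were rounded for tests. Of 22274 genes 22219 were matched to a symbol. Each comparison was fitted with edgeR 4.0.16 in R 4.3.3 (quasi-likelihood, TMM, filterByExpr with a minimum count of 10) on the groups compared, with Benjamini-Hochberg adjustment over all genes tested and a threshold of 0.05. The SE is the log2 fold change over the root of F, and 95% intervals use the t distribution with the moderated degrees of freedom. Exact tests of 3 against 3 libraries cannot go below 0.1 (two-sided), and of 3 against 2 not below 0.2, so none was run on FPKM. Alternatives were DESeq2 1.42.0, its size factors in edgeR, no filter, keeping genes averaging 50 counts or more, a term for replicate number (block), a single model of all groups, each library left out, and SHAM 1 included. For likeness, a pseudocount of 0.1 and a mean FPKM of at least 0.1 were tried. Both GH interactions, the KEGG list and the alternatives for list genes were added after seeing the data. The members and lists were chosen with earlier results of these data known. By rule, all members were named, the ligands, up to 3 genes past the threshold with the largest change per list, the 3 genes most like each member, and the marker lists. Levels and figures used Python 3.11.15, pandas 2.3.3, numpy 2.4.6 and matplotlib 3.10.9. A self-test with planted changes of known size was run on the same code.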

Additional observations from a re-analysis of the deposited data

How the results depend on the processing

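Over 11 comparisons, 257 values of single members under alternatives other than leaving out a library kept their direction and their side of the threshold, 4 lost the call and 8 changed sign. Leaving out single libraries kept 244, ended 4 calls, added 3 and changed the sign of 15. The cause was not tested, except where fewer samples or other samples are the change itself. All sign changes of members were in values that had not passed. The 2 interactions with GH, the KEGG list and the alternatives for the named list genes were chosen after seeing the data. Avpr1a gives no value in the hippocampal lesion comparison, nor between regions when genes must average 50 counts.

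With SHAM 1 included, Avpr1a was 0.08 at Day 3 and 0.25 at Day 10 against SHAM, Lnpep was 0.06 at Day 10, Cd38 was 0.01 and Avp 0.17 for SHAM-GH against SHAM, and the interactions with GH were −0.17 for Avpr1a at Day 10 and −0.09 for Oxt at Day 3. With the replicate block, PEL_10d against SHAM gave Avpr1a 0.16, Lnpep 0.04 and Cd38 −0.04, and PEL_3d-GH against PEL_3d gave Avpr1a 0.00. Correlations of the deviations of replicates with the same number ran from −0.29 to 0.23. Replicates of different number were not correlated, so these values cannot show whether libraries were paired. For PEL_10d-GH against SHAM-GH, Oxtr lost its call by DESeq2 (−0.44), and a single fit over all groups ended those of Oxtr (−0.43), Lnpep (−0.23) and Cd38 (0.64). The Cd38 interaction at Day 10 gained a call by DESeq2 (0.61).

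Leaving out single libraries gave these log2 ranges. For PEL_3d against SHAM, Avpr1a ran from −0.38 to −0.07, Lnpep from −0.24 to −0.06 and Cd38 from 0.12 to 0.44. For PEL_10d against SHAM, Oxtr ran from −0.38 to −0.02, Avpr1a from −0.20 to 0.17, Lnpep from −0.14 to 0.04 and Cd38 from −0.04 to 0.10. For PEL_10d against PEL_3d, Oxtr ran from 0.00 to 0.34, Avpr1a from 0.01 to 0.38, Lnpep from 0.04 to 0.20 and Cd38 from −0.40 to −0.10. For SHAM-GH against SHAM, Lnpep ran from −0.04 to 0.14 and Oxt from −1.26 to 0.04. For PEL_3d-GH against PEL_3d, Avpr1a ran from −0.15 to 0.18, Oxt from −0.61 to 0.08 and Avp from −0.68 to 1.23. For PEL_10d-GH against PEL_10d, Oxtr ran from −0.29 to 0.06. For PEL_3d-GH against SHAM-GH, Avpr1a ran from −0.58 to −0.32. For PEL_10d-GH against SHAM-GH, Oxtr ran from −0.51 to −0.37, Lnpep from −0.27 to −0.17 and Avpr1a from −0.06 to 0.20. Between regions, Avpr1a ran from 2.34 to 3.36. For the regional interaction, Avpr1a ran from −2.31 to 1.91, Oxt from −9.13 to 1.98 and Avp from −7.87 to 1.35. For the interactions with GH, Cd38 ran from 0.61 to 0.92 at Day 3, Oxt from −0.31 to 0.99 and Avp from −0.28 to 1.63 there, and Avpr1a ran from −0.09 to 0.28 at Day 10.

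Counts of genes called that moved by over 1.5 times included these. For PEL_3d against SHAM, 6035 became 3815 in a single fit, and with SHAM 1 the share fell from 40.5% to 11.4%, and the count was 3394 without SHAM 2 and 3887 without SHAM 3. For PEL_10d against SHAM, 1392 became 839 and 269. For SHAM-GH against SHAM, 159 became 266 by DESeq2, 359 without a filter, 317 with the block, and 0 in a single fit and with SHAM 1. For PEL_10d against PEL_3d, 2742 became 1333 without PEL_3d 3, 1629 without PEL_3d 1 and 1478 without PEL_10d 2. SHAM-GH against SHAM gave 44 to 52 without SHAM-GH 1, SHAM 2 or SHAM 3. For PEL_10d-GH against SHAM-GH, 4545 became 2449 in a single fit. For the regional interaction, 284 became 821 by DESeq2, 157 with the block and 94 with SHAM 1. Without SHAM 2 or SHAM 3, PEL_10d against SHAM gave 205 or 304, and the regional interaction gave 0. Without HIP-SHAM 1 that interaction gave 1616, and the hippocampal lesion comparison gave 873 in place of 0, 1016 in a single fit and 231 by DESeq2. The regional interaction gave 31 to 41 without PEL_10d 1, PEL_10d 3, HIP-PEL_10d 2 or HIP-PEL_10d 3. PEL_3d-GH against PEL_3d gave 59 by DESeq2 and 56 without PEL_3d-GH 3 in place of 4, and PEL_10d-GH against PEL_10d gave 39 by DESeq2 in place of 0. The Day 3 interaction with GH gave 633 without PEL_3d-GH 3, 142 by DESeq2 and 0 with SHAM 1 in place of 7, and the Day 10 one gave 96 by DESeq2 and 48 without PEL_10d 1 in place of 0.

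Among the genes most like each member, Oxtr and Lnpep kept 3 of 3 in both alternatives. Avpr1a kept 2 of 3 with the lower mean, where Ebf2 entered, and Cd38 kept 2 of 3 in each, where Sirpa or Mmp13 entered.

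Limits are these. With 2 or 3 libraries a group, differences of the receptors under about the interval widths given are not excluded. Avpr1a in the hippocampus rests on 1 to 21 counts in the libraries that match their label, where counting error alone is large. The tests see spread between libraries only, and lesion, day and cell composition cannot be separated in these bulk samples.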
